A study of Mus musculus with 16 samples.

Results

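The genes described here are 10 precursors of neuropeptides (Npy, Sst, Cck, Penk, Tac1, Vip, Pdyn, Cort, Crh and Nts), found by symbol among the 53379 genes counted in each library. The set was chosen by the measured level of Npy, which was higher in Eed-/- than in Eed+/+ neurons, and the question was whether other peptide precursors shared that rise. That difference is therefore described without a test. The other 9 genes are well-known peptide precursors of the forebrain.

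RNA-seq was carried out on green MADM-labeled cells sorted from the neocortex of mice at P4 (postnatal day 4). MADM, mosaic analysis with double markers, recombines homologous chromosomes in dividing cells, so that the color of a sparse cell tells its genotype. Labels placed 15 of 16 libraries in 4 groups: Eed+/+ astrocytes (n = 5), Eed-/- astrocytes (n = 5), Eed+/+ neurons (n = 2) and Eed-/- neurons (n = 3). Eed is part of the core of PRC2, the Polycomb enzyme complex that methylates histone H3 at lysine 27. Control animals carried MADM cassettes on chromosome 7, Emx1-Cre, which recombines in cortical progenitors of the excitatory and glial lineage, and XGFAP-lacZ, a lacZ transgene under the human GFAP promoter. Eed-MADM animals carried the same elements with a floxed Eed allele, so green cells were Eed-/- among mostly Eed+/- cells. Green cells of both genotypes had both copies of chromosome 7 from the father, the strain label was CD1, and the study described a mixed C57BL/6 and CD1 background. Astrocytes were GFP-positive and lacZ-positive cells, and neurons were GFP-positive cells without lacZ, a gate that no neuronal marker defines. Each library came from the sorted cells of 1 animal.

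Neuropeptides are made as precursor proteins that enter the secretory pathway, where convertases and carboxypeptidase E cut them and an amidating enzyme finishes many of them. The peptides are stored in dense core granules and act on G protein-coupled receptors of other cells. In the neocortex most of these precursors mark sets of inhibitory interneurons, such as the cells that carry Sst together with Npy, while Cck and Penk also occur in excitatory neurons. PRC2 is known to sit at CG-rich start regions of developmental genes that are switched off, and no histone mark was measured in these libraries.

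The start regions of the precursors differed in how many CG pairs they held. RefSeq promoter sequences (GRCm38.p6) were at hand for 8 of the 10 genes. Shown are the 250 bases before the start of the 4 precursors with reads in all 4 groups, on the gene's strand, with CG pairs in capitals. Npy lies at chr6:49822460-49822709 (plus strand), Cck at chr9:121495695-121495944 (minus strand), Pdyn at chr2:129699939-129700188 (minus strand, the more upstream of 2 start sites) and Cort at chr4:149126764-149127013 (minus strand). None of these windows holds an exon or gene body in GENCODE M21 (0 exon bases in each).
Npy: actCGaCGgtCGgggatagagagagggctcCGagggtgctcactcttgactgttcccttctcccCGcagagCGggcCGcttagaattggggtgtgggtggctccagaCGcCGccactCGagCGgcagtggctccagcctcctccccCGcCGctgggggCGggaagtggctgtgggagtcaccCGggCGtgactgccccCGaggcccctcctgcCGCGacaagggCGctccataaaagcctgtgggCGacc
Cck: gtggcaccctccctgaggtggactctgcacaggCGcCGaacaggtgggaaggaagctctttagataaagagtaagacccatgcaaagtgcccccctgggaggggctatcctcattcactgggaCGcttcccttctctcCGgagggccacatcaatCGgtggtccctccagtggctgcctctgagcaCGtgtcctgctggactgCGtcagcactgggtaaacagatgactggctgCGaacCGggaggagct
Pdyn: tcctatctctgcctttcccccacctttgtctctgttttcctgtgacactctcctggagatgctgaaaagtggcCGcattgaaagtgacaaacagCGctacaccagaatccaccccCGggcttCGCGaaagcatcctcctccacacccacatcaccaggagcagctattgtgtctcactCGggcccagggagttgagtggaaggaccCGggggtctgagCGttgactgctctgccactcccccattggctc
Cort: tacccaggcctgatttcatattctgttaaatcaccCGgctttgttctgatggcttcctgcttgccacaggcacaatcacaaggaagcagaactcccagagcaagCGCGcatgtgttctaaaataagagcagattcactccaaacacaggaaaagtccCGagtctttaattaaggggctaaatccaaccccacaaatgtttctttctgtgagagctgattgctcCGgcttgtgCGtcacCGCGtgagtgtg
The Npy window held 21 CG pairs and 69.2% G or C, the most CG pairs of the 8 genes. Of all 32851 promoters in the table, 16.3% held at least as many CG pairs, and the median was 6. Tac1 followed with 17 CG pairs. The windows of Cck (9), Sst, Cort and the upstream start of Pdyn (8 each) lay closer to the median. Those of the second Pdyn start (4), Vip (3) and Nts (2) lay below it. In GENCODE M21 the windows of Tac1, Sst and Nts include 182, 114 and 68 exon bases of these genes themselves, so they are not upstream sequence throughout. The cAMP response element TGACGTCA (a palindrome, so both strands read alike) was found in the Sst window and in none of the other 7 genes' windows, against 1.55% of all promoters.

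**Figure D1:**
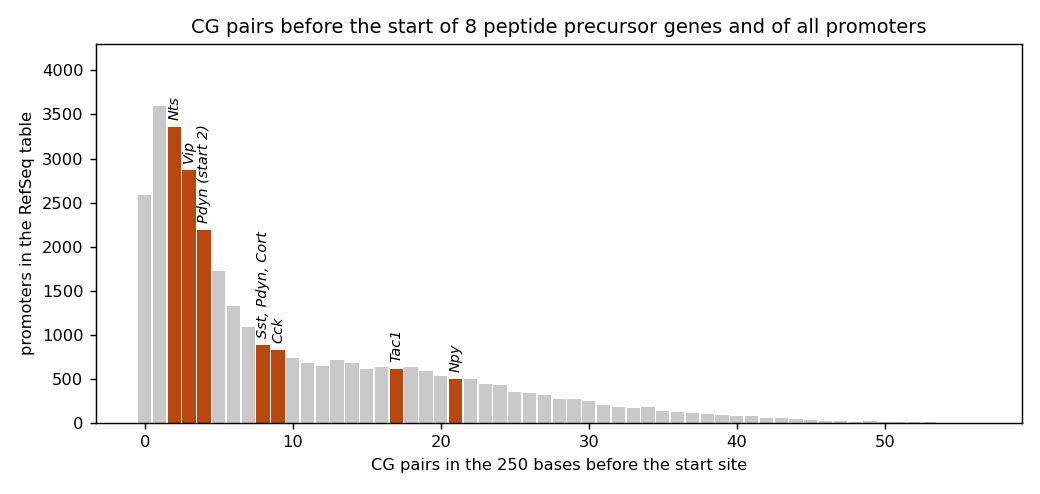
Number of CG pairs in the 250 bases before the RefSeq start site (x axis) against the number of promoters in the RefSeq table with that number (y axis, all 32851 promoters in grey, bars that hold a peptide precursor in orange). Npy with 21 and Tac1 with 17 CG pairs sit in the right tail, whereas Nts with 2 and Vip with 3 sit in the bulk.

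Depth sets what can be seen of such low genes. Gene reads summed to between 211736 and 3178529 per labelled library, so that 3 reads (the limit that a count of 0 allows) corresponded to between 0.944 and 14.2 CPM (counts per 1000000 gene reads). Only 10 of the 15 libraries had at least 1000000 uniquely aligned reads and at least 60% of reads uniquely aligned. The others were Eed-/- astrocyte replicates 1, 3 and 4, Eed+/+ astrocyte replicate 3 and Eed+/+ neuron replicate 2. Eed itself had 0 to 17.3 CPM in Eed-/- and 3.71 to 76.2 CPM in Eed+/+ astrocytes, and 16.4 to 38.0 CPM in Eed-/- and 64.9 to 81.1 CPM in Eed+/+ neurons. These counts cover the whole gene, including exons outside the deleted region. The study counted reads in the deleted region alone and reported efficient deletion in astrocytes. The values of 0 came from Eed-/- astrocyte replicates 1, 3 and 4, all outside the alignment limits. Levels below are CPM on library sizes scaled by TMM (trimmed mean of M values). In sorted bulk cells, fewer cells that express a gene and less RNA per cell cannot be told apart.

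Reads were found for 8 of the 10 precursors. Crh, which encodes corticotropin-releasing hormone, and Nts, the neurotensin precursor, had 0 reads in all 15 libraries. Over the 4933703 gene reads of Eed-/- neurons a count of 0 allows up to 0.608 CPM, and over the 2130476 of Eed+/+ neurons up to 1.41 CPM. Vip, the vasoactive intestinal peptide precursor, had 1 read and Penk, the proenkephalin gene, 4 reads, all in Eed-/- neuron replicate 2. Penk overlaps a gene on the opposite strand (A830012C17Rik), and the counting did not use strand. The number of precursors with a read was 8 in Eed-/- neurons, 5 in Eed+/+ neurons, 5 in Eed+/+ astrocytes and 4 in Eed-/- astrocytes. Npy made up 59.7% of the 531 precursor reads of Eed-/- neurons and 76.4% of the 741 of Eed-/- astrocytes, but 25.0% of the 24 of Eed+/+ neurons and 3.48% of the 230 of Eed+/+ astrocytes.

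**Figure D2:**
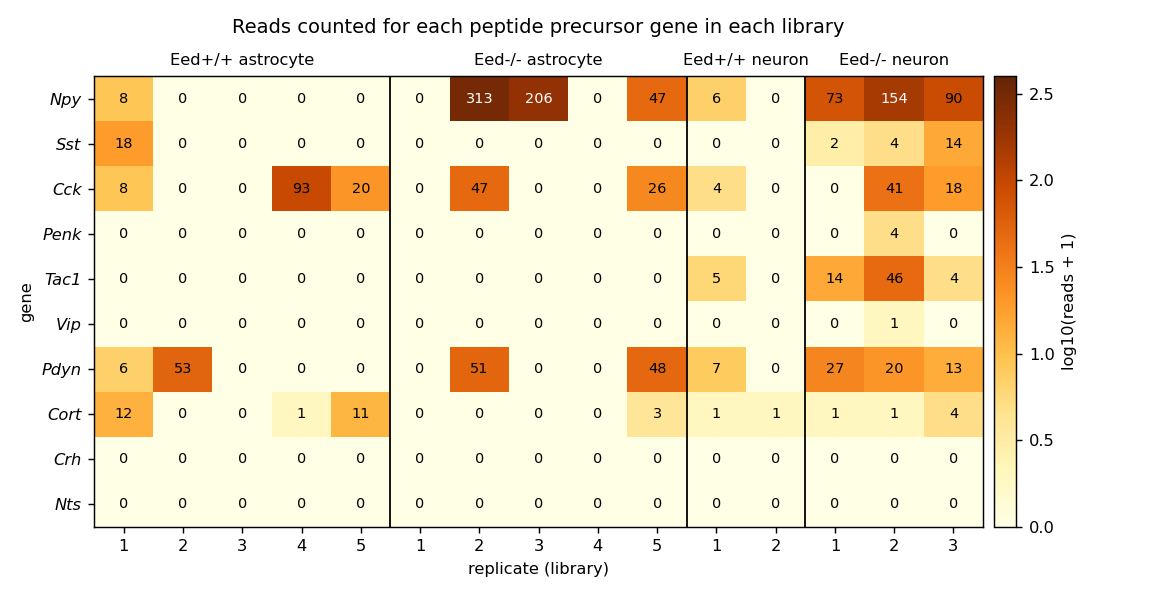
Reads counted for each of the 10 precursor genes (rows) in each of the 15 labelled libraries (columns, by group and replicate), with the count printed in each cell and shading on a log10(reads + 1) scale. Npy fills all 3 Eed-/- neuron libraries with 73, 154 and 90 reads and 3 of 5 Eed-/- astrocyte libraries, while Crh and Nts are empty throughout.

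Npy, the precursor of neuropeptide Y, was found in every Eed-/- neuron library and hardly in controls. Its levels were 57.1, 79.0 and 56.7 CPM in Eed-/- neuron replicates 1 to 3, from 73, 154 and 90 reads. Eed+/+ neuron replicate 1 had 3.22 CPM from 6 reads and replicate 2 had 0 reads. The 3 Eed-/- libraries lay close together and all above both controls. Means were 64.3 ± 12.8 CPM (SD, n = 3) against 1.61 ± 2.28 CPM (SD, n = 2). The fitted log2 fold change was 4.64 (SE 1.02), given as a description because this contrast chose the gene. Per gene read the pooled libraries differed 22.8-fold, given likewise without an interval. Without Eed+/+ neuron replicate 1 the remaining control held 0 reads and the ratio was at least 7.36.

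In Eed-/- neurons the other precursors with reads lay lower, and their replicates spread more widely relative to their level. In Eed+/+ neurons Pdyn (1.88 CPM) and Cort (1.83 CPM) averaged slightly above Npy (1.61 CPM). Over all genes with a read in neurons, 11% had all 3 Eed-/- libraries above both Eed+/+ libraries. Among the 8 precursors with a read in neurons this held for 3: Npy, Sst and Pdyn. Without Npy, which this contrast chose, it was 2 of 7, and Sst, Penk and Vip were among the 7 through Eed-/- reads alone, so nothing is read from that count. It held for none in the opposite direction (background 5.48%). No gene of 11862 passed the threshold (0% called, edgeR's quasi-likelihood test, adjusted p under 0.05). At an unadjusted p under 0.05 there were 862 genes, DESeq2 called 54 and limma-voom 0. Of the 10 precursors, 4 passed the filter on low counts (Npy, Cck, Tac1 and Pdyn). In each of these 4 the deeper control had 4 to 7 reads and the other 0, so they passed through their Eed-/- reads and are described 1 by 1, with no p.

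Tac1 encodes the precursor of substance P and neurokinin A. Its levels were 10.95, 23.6 and 2.52 CPM in Eed-/- neurons, from 14, 46 and 4 reads, and 2.68 and 0 CPM in Eed+/+ neurons. Replicate 2 of the Eed-/- neurons was highest, and replicate 3 lay just under the higher control, so the groups overlapped. The log2 fold change was 2.56 (SE 1.35).

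Pdyn encodes prodynorphin, from which the dynorphin opioid peptides are cut. It stood at 21.1, 10.3 and 8.18 CPM in Eed-/- neurons and at 3.76 and 0 CPM in Eed+/+ neurons. The groups did not overlap, and the lowest Eed-/- library had 13 reads against 7 in the higher control. The log2 fold change was 2.19 (SE 1.18). At the share of gene reads that Pdyn took in the pooled Eed-/- neurons, Eed+/+ neuron replicate 2 would have held 4.18 reads, so this library alone says little of its 0.

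Cck, the cholecystokinin precursor, had 0, 21.04 and 11.3 CPM in Eed-/- neurons and 2.15 and 0 CPM in Eed+/+ neurons. A library of each genotype had no read, and the groups overlapped. The log2 fold change was 2.67 (SE 1.63), and it was -0.25 with limma-voom and sample quality weights.

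Sst and Cort encode somatostatin and cortistatin, related peptides that share receptors. Sst had 1.56, 2.05 and 8.81 CPM in Eed-/- neurons, from 2, 4 and 14 reads, and 0 reads in both Eed+/+ neuron libraries. The pooled ratio was at least 2.88 against the limit of 3 reads over the Eed+/+ group. At the pooled Eed-/- share the controls would have held 7.24 and 1.39 Sst reads, so only replicate 1 was deep enough to bear on it. Cort had 1, 1 and 4 reads in Eed-/- neurons and 1 read in each Eed+/+ library, at 0.782, 0.513, 2.52, 0.537 and 3.12 CPM. The genotypes overlapped, and the Eed-/- over Eed+/+ ratio of 1.30 per gene read had a counting interval of 0.232 to 13.1. The mean levels ran the other way, at 1.27 ± 1.09 CPM (SD, n = 3) in Eed-/- and 1.83 ± 1.83 CPM (SD, n = 2) in Eed+/+ neurons, so the direction depends on pooling.

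**Figure D3:**
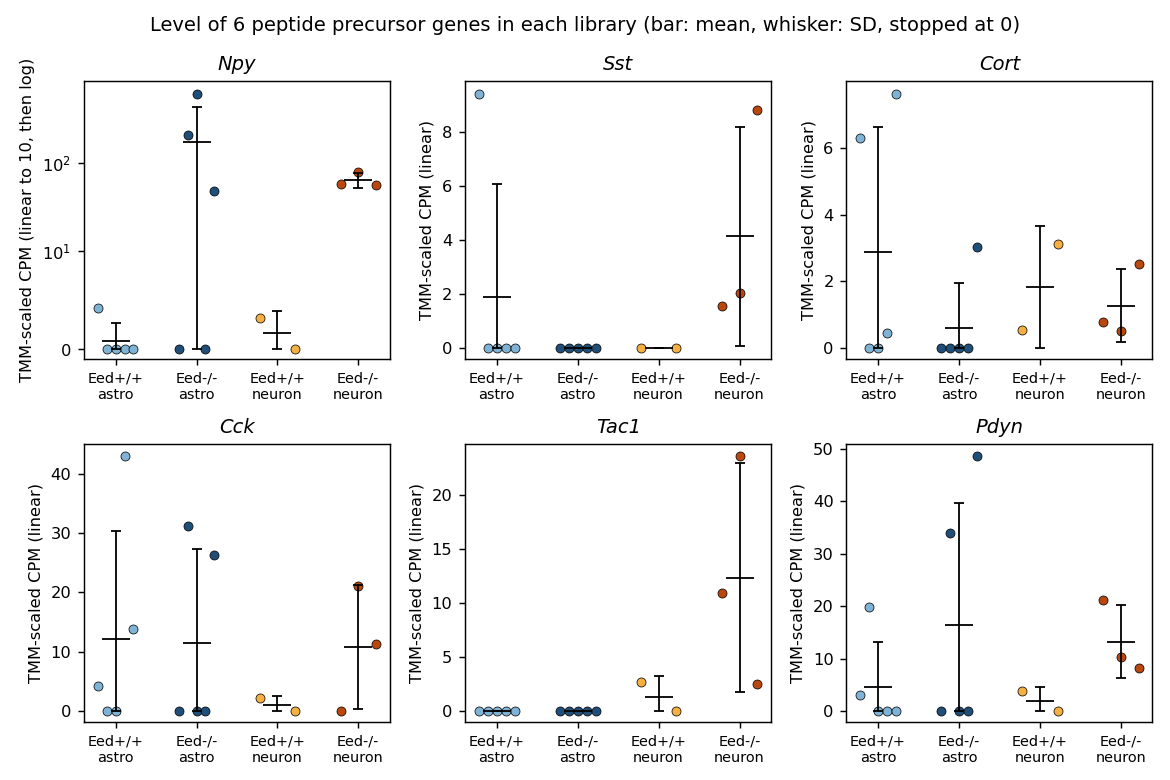
TMM-scaled CPM (y axes, linear for 5 genes; for Npy linear to 10 and log above) of 6 precursors in the 4 groups (x axes), with 1 point per library, bars at the mean and whiskers of 1 SD stopped at 0. The 3 Eed-/- neuron points of Npy sit between 56.7 and 79.0 CPM above both controls, whereas those of Tac1 and Cck overlap their controls.

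Npy was also present in Eed-/- astrocytes, in some libraries only. Eed-/- astrocyte replicates 1 to 5 had 0, 208, 608, 0 and 47.5 CPM, from 0, 313, 206, 0 and 47 reads. Eed+/+ astrocyte replicate 1 had 4.19 CPM from 8 reads, and replicates 2 to 5 had 0. Replicates 2, 3 and 5 thus exceeded every control, and replicates 1 and 4, both outside the alignment limits, were at 0 like most controls. Means were 173 ± 258 CPM (SD, n = 5) and 0.838 ± 1.87 CPM (SD, n = 5). The difference of 172 CPM gave p = 0.167 in a two-sided exact permutation test, where 5 against 5 libraries can go down to 0.00794. Without Eed-/- replicate 1, or without replicate 4, the difference was 215 CPM and p = 0.0476 (exact permutation test). Without Eed-/- replicate 3, which holds the highest level on a shallow library, it was 63.1 CPM and p = 0.167 (exact permutation test). Among the libraries within the alignment limits, 2 Eed-/- against 4 Eed+/+, it was 127 CPM and p = 0.0667, the smallest p that this exact test allows. Pooled per gene read, Npy was 178-fold higher (95% counting interval 89.8 to 415), and at least 373-fold higher without Eed+/+ replicate 1, the only control with a read.

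Npy did not pass the filter on low counts within astrocytes, so the edgeR fit holds no value for it. In that fit 0 of 8956 genes were called (0%), with 108 at an unadjusted p under 0.05, 8 called by DESeq2 and 0 by limma-voom. Npy had a value in 5 alternatives, which rests on 566 Eed-/- reads against 8 in Eed+/+ astrocytes, so it is given as a description with no p. In these its log2 fold change lay between 6.88 and 7.71.

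In the 5 precursors with a read in astrocytes, no gene had all Eed-/- libraries above or below all Eed+/+ libraries, beside 0.0164% and 0.830% of all genes with a read. Pdyn had 0, 33.9, 0, 0 and 48.5 CPM in Eed-/- and 3.14, 19.8, 0, 0 and 0 CPM in Eed+/+ astrocytes. Its 2 highest values came from Eed-/- replicates 2 and 5, and the groups overlapped at 0 (difference 11.9 CPM, exact permutation p = 0.444). Within the alignment limits both Eed-/- libraries of Pdyn lay above all 4 Eed+/+ libraries, as for Npy, with a difference of 35.5 CPM (exact permutation p = 0.0667, the smallest allowed). The share of all genes that did so in this subset was not counted, so nothing is read from it. Pooled per gene read, Pdyn was 4.23-fold higher over all libraries (95% counting interval 3.03 to 5.94) and 5.41-fold higher within the limits (3.88 to 7.60). Without Eed-/- replicate 5 the difference was 3.89 CPM, without Eed-/- replicate 2 it was 7.55 CPM, and within the first run of library numbers it was -0.163 CPM. Cck had 0, 31.2, 0, 0 and 26.3 CPM in Eed-/- and 4.19, 0, 0, 42.9 and 13.9 CPM in Eed+/+ astrocytes. High and empty libraries occurred in both genotypes (difference -0.679 CPM, exact permutation p = 1.00). The pooled ratio per gene read ran the other way, at 1.52 (95% counting interval 1.12 to 2.05), and was 1.95 within the alignment limits. The sign of the level difference turned to 13.5 CPM within the alignment limits, to 2.20 CPM without Eed-/- replicate 1, 3 or 4 and to 6.998 CPM without Eed+/+ replicate 4.

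Sst was read only in Eed+/+ astrocyte replicate 1 (18 reads, 9.43 CPM), and Cort in 3 Eed+/+ libraries (up to 7.62 CPM) and 1 Eed-/- library (3.03 CPM). Exact permutation tests gave p = 1.00 for Sst and 0.286 for Cort, and over the 5 tests of this comparison the smallest p was that of Npy. Tac1 had no read in any astrocyte library of either genotype.

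**Figure D4:**
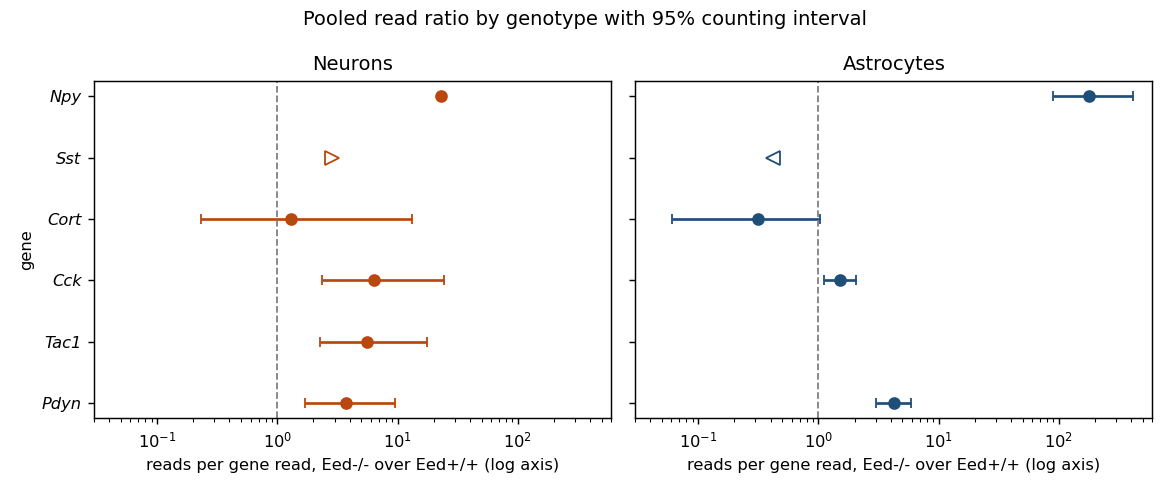
Reads per gene read in Eed-/- over Eed+/+ libraries (x axes, log scale) for 6 precursors (y axis) in neurons (left) and astrocytes (right), with points at the pooled ratio, bars for the exact 95% counting interval (not drawn for Npy in neurons, which chose the set) and open triangles for bounds where a group had 0 reads. Npy lies farthest to the right in both panels, at 22.8 and 178, and the bars leave out the spread between animals.

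Tac1 was the precursor with reads in neurons of both genotypes and none in astrocytes of either. In Eed+/+ cells its 5 reads all came from neuron replicate 1, and 5 libraries of astrocytes with 9780680 gene reads had 0. The neuron level was 1.34 ± 1.90 CPM (SD, n = 2), and an exact permutation test gave p = 0.286, where 2 against 5 libraries allow 0.0476. In the edgeR fit over 15 libraries, 1 of 13367 genes was called between Eed+/+ neurons and astrocytes (0.00748%). Of the 4 precursors other than Npy tested there (Sst, Cck, Tac1 and Pdyn) 0 were called. The log2 difference of neurons minus astrocytes for Cck was -3.10 (SE 2.44) and for Pdyn -1.05 (SE 2.14). For Npy, whose Eed+/+ neuron level was used in choosing the set, it was 1.10 (SE 1.73) as a description, and it turned to -3.34 without Eed+/+ neuron replicate 1. Exact permutation tests of the 5 other precursors with a read in this comparison gave p between 0.286 and 1.00. Genes with both neuron libraries above all 5 astrocyte libraries made up 6.60% of those with a read, and 2.34% had both below. Of the 6 precursors with a read there, 0 did either.

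In Eed-/- cells 8 of 13367 genes were called between neurons and astrocytes (0.0598%), and 0 of the 4 precursors other than Npy that were in the fit. Tac1 had 64 reads in 3 neuron and 0 in 5 astrocyte libraries, at least 16.8-fold more per gene read. Sst had 20 reads in neurons and 0 in astrocytes, at least 5.25-fold more. Both were in the fit through their neuron reads and are given with no p. Penk (4 reads) and Vip (1 read) were likewise read in neurons alone, too few to give a fold. Cck and Pdyn differed by less than 1 SE, with log2 differences of -0.14 (SE 1.72) and -0.36 (SE 1.74). Npy, given as a description, was at 0.441 of its astrocyte level per gene read and at 0.621 without Eed-/- astrocyte replicate 3. The fitted log2 difference was -1.43 (SE 1.501), and it was -0.0022 without that replicate, so the fitted difference rests on it.

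Whether the genotype difference itself differed between neurons and astrocytes was fitted as an interaction. It was called for 7 of 13367 genes (0.0524%) and for 0 of the 4 precursors other than Npy that were in the fit. The interaction was 2.96 for Cck (SE 2.84, adjusted p = 1.00, edgeR) and 0.70 for Pdyn (SE 2.65, adjusted p = 1.00, edgeR) on the log2 scale. For Pdyn it turned to -1.03 within the alignment limits. Tac1 and Sst had a group at 0 in 1 or more cell types, and their fitted interactions are no bound.

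Compared per length of the gene's exons, Npy led the precursors in both Eed-/- groups. Its mean was 114 CPM per kb in Eed-/- neurons, followed by Cck at 8.27, Sst at 5.75, Pdyn at 4.57 and Tac1 at 3.64 CPM per kb. Between these 4 neighbors the differences were smaller than the spread of their libraries. In Eed-/- astrocytes Npy stood at 305 CPM per kb and Cck at 8.82. In Eed+/+ neurons the order was Npy 2.84, Cort 2.70, Cck 0.822, Pdyn 0.651 and Tac1 0.395 CPM per kb, each resting on 7 reads or fewer. In Eed+/+ astrocytes Cck (9.34) and Cort (4.24) came before Sst (2.61), Pdyn (1.59) and Npy (1.48 CPM per kb).

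Markers of inhibitory interneurons were present in both genotypes of neuron libraries. All 16 markers on the list had a read in each genotype, with none at 0. Their summed level was 1632 and 1451 CPM in Eed+/+ neurons and 1013, 1138 and 1504 CPM in Eed-/- neurons. The library with the highest sum, Eed+/+ replicate 1, had 3.22 CPM of Npy. The 11 excitatory neuron markers all had reads, at 257 and 381 CPM in Eed+/+ and 358 to 788 CPM in Eed-/- neurons, and were thus higher on average beside Npy. The 10 astrocyte markers were also read in the neuron libraries, at 9513 and 14150.0 CPM in Eed+/+ and 10360.0 to 20822 CPM in Eed-/-. The 6 pan-neuronal markers, all read in every group, summed to 1394 ± 514 CPM (SD, n = 2) in Eed+/+ and 2037 ± 485 CPM (SD, n = 3) in Eed-/- neurons. They summed to 1557 ± 1091 CPM in Eed+/+ and 996 ± 1037 CPM in Eed-/- astrocytes (SD, n = 5 each), so by these markers the Eed+/+ libraries labelled neuron did not exceed those labelled astrocyte. The 7 oligodendrocyte lineage markers, all read in both genotypes, summed to 2855 and 1348 CPM in Eed+/+ neurons and to 2452 to 3824 CPM in Eed-/- neurons. The part of all these cells in the Npy difference, and in the differences between cell types, was not tested.

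In Eed-/- astrocytes, the 3 libraries with Npy had interneuron marker sums of 324, 729 and 1550.5 CPM beside 208, 608 and 47.5 CPM of Npy. Eed+/+ astrocytes reached 1340.5 CPM of these markers in replicate 3, with 0 Npy reads. Over the list, 15 of 16 markers had a read in Eed-/- astrocytes (Nkx2-1 at 0; range 130 to 1550.5 CPM) and 14 of 16 in Eed+/+ astrocytes (Lhx6 and Nkx2-1 at 0; range 125 to 1340.5 CPM). Astrocyte markers, 10 of 10 read in both genotypes, summed to 63965, 28363 and 23768 CPM in Eed-/- replicates 2, 3 and 5, which had Npy reads, and to 4494 and 7511 CPM in replicates 1 and 4, which had none. In Eed+/+ astrocytes they ranged from 8121 to 58466 CPM. Erythroid markers reached 5723 and 7801 CPM in Eed-/- replicates 1 and 4, which had no Npy read, with 5 of 5 markers read. In Eed+/+ astrocytes 3 of 5 were read (Hba-a2 and Hbb-bt at 0) at up to 5.76 CPM. Microglia markers, 7 of 7 read in both genotypes, reached 6488 and 2143 CPM in Eed-/- replicates 1 and 3 and 296 CPM in Eed+/+ astrocytes. Their part in the result was not tested.

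**Figure D5:**
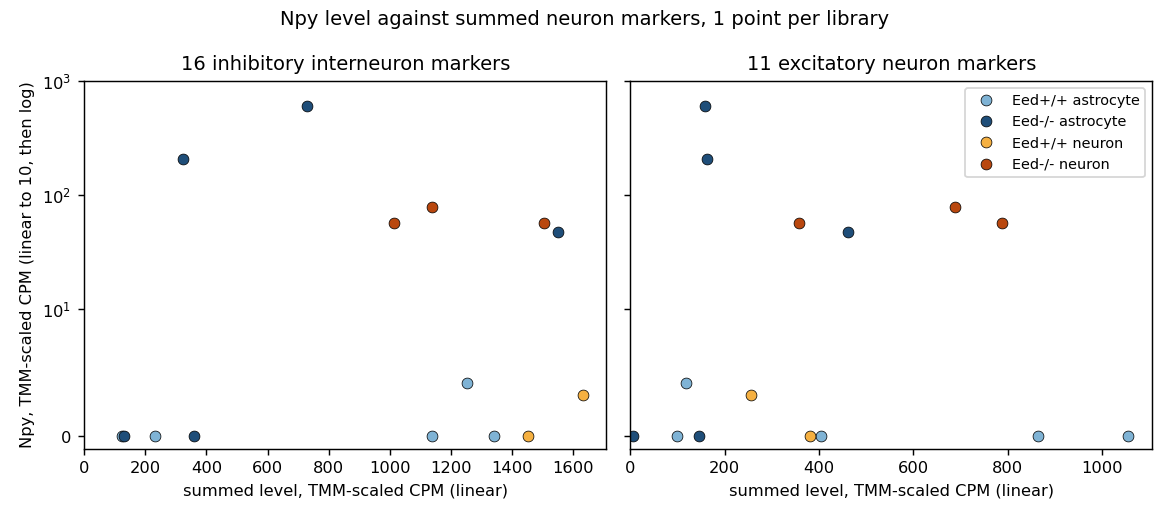
Npy level (y axis, TMM-scaled CPM, linear to 10 and log above) against the summed level of 16 inhibitory interneuron markers (left x axis) and 11 excitatory neuron markers (right x axis), with 1 point per labelled library, colored by group. Neuron libraries of both genotypes lie between 1013 and 1632 CPM of interneuron markers, with Npy between 56.7 and 79.0 CPM in Eed-/- neurons and at 3.22 and 0 CPM in Eed+/+ neurons.

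The genes that receive, cut and store neuropeptides were counted from lists of the pathway. None was called by genotype in either cell type. Of 24 peptide receptors 6 were tested in neurons, with a median log2 fold change of 0.84, beside 0.15 over all genes. Ntsr2, a neurotensin receptor of astrocytes, had 221 ± 77.8 CPM (SD, n = 3) in Eed-/- and 51.1 ± 11.6 CPM (SD, n = 2) in Eed+/+ neurons (log2 fold change 2.01, SE 0.70, adjusted p = 0.646, edgeR). Its ligand gene Nts had no read. The somatostatin receptors Sstr1 and Sstr2 had 32.1 ± 2.42 and 64.3 ± 39.5 CPM (SD, n = 3) in Eed-/- neurons. Sort1, the sortilin gene, had 41.5 ± 28.0 CPM (SD, n = 3) there. In Eed+/+ neurons those 3 genes stood at 21.9 ± 4.38, 17.3 ± 15.7 and 69.6 ± 11.9 CPM (SD, n = 2). In astrocytes 3 receptors were tested, with a median of -0.33 beside -0.54 over all genes. The 24 receptors, Ntsr2 among them, summed to 328 to 453 CPM in Eed-/- and 172 to 175 CPM in Eed+/+ neurons. Of the 15 with a read in neurons, 4 had all Eed-/- libraries above both Eed+/+ libraries and 0 had them below, beside 11% and 5.48% of all genes. Only 12 of the 24 had a read in Eed+/+ neurons, so nothing is read from the 4.

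Among the processing enzymes Cpe, carboxypeptidase E, was the most abundant per exon length in all groups, and others such as Furin and Cpd lay below Npy in Eed-/- cells on that scale. Cpe had 2288 ± 601 CPM (SD, n = 3) in Eed-/- and 2729 ± 1397 CPM (SD, n = 2) in Eed+/+ neurons. Its means in astrocytes were 3945 ± 3849 CPM in Eed-/- and 4836 ± 2234 CPM in Eed+/+ (SD, n = 5 each). Of 12 enzymes and helpers 10 were tested in neurons (median 0.43) and 8 in astrocytes (median -0.03). In neurons 2 of the 12 had all Eed-/- libraries above both Eed+/+ libraries and 0 had them below, beside 11% and 5.48% of all genes. Their sums, 2314 to 3404 CPM in Eed-/- and 2472 and 3867 CPM in Eed+/+ neurons, overlapped. Pam, the amidating enzyme, had 217 ± 26.8 CPM (SD, n = 3) in Eed-/- and 89.0 ± 121 CPM (SD, n = 2) in Eed+/+ neurons (adjusted p = 0.767, edgeR). The helpers Pcsk1n and Scg5 had 182 ± 77.4 and 186 ± 30.8 CPM (SD, n = 3) in Eed-/- neurons and 81.5 ± 106 and 127 ± 135 CPM (SD, n = 2) in Eed+/+ neurons. Their log2 fold changes were 1.06 (SE 0.90) and 0.47 (SE 0.74).

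Of 9 secretory granule genes 7 were tested in neurons (median 1.13) and 4 in astrocytes (median 0.68). In neurons 3 of the 9 had all Eed-/- libraries above both Eed+/+ libraries and 0 had them below, beside 11% and 5.48% of all genes. Their sums, 418 to 692 CPM in Eed-/- and 403 and 500 CPM in Eed+/+ neurons, overlapped. Scg3, a granin-binding granule protein, had 326 ± 93.4 CPM (SD, n = 3) in Eed-/- and 342 ± 33.3 CPM (SD, n = 2) in Eed+/+ neurons. The granins Chga and Chgb had 70.5 ± 15.4 and 34.7 ± 13.7 CPM (SD, n = 3) in Eed-/- and 26.2 ± 1.69 and 12.6 ± 13.3 CPM (SD, n = 2) in Eed+/+ neurons (adjusted p = 0.720 and 0.763, edgeR). Cadps, which primes granules for release, had 28.8 ± 29.0 CPM in Eed-/- (SD, n = 3) and 51.8 ± 7.11 CPM in Eed+/+ neurons (SD, n = 2) (adjusted p = 0.773, edgeR).

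Of 35 further peptide precursors, 34 were in the files, and 3 were tested in neurons: Nmb, Pomc and Grp. Their log2 fold changes were -1.97 (SE 0.89), 0.43 (SE 1.20) and 3.03 (SE 1.49), and Nmb had an adjusted p of 0.684 (edgeR). Grp passed the filter on low counts through its Eed-/- reads and is given with no p. Of the 24 with a read in neurons, 5 had all Eed-/- neuron libraries above both Eed+/+ libraries and 2 had them below (Nmb and Apln), beside 11% and 5.48% of all genes. Only 16 of the 34 had a read in Eed+/+ neurons, and others of the 24, such as Npw, entered through Eed-/- reads alone, so nothing is read from the 5. They were Grp, Gal, Adcyap1, Prok2 and Npw, of which all but Grp are named after their values were seen. Gal, the galanin precursor, had 5.48, 5.13 and 3.15 CPM in Eed-/- and 1.07 and 0 CPM in Eed+/+ neurons, from 7, 10, 5, 2 and 0 reads. Adcyap1, the precursor of PACAP, had 3.13, 6.16 and 1.26 CPM in Eed-/- and 0.537 and 0 CPM in Eed+/+ neurons. Neither passed the filter on low counts, so neither was tested. Grp, the gastrin-releasing peptide precursor, averaged 7.59 ± 5.23 CPM (SD, n = 3) in Eed-/- and 0.537 ± 0.759 CPM (SD, n = 2) in Eed+/+ neurons. Nmb, the neuromedin B precursor, averaged 6.50 ± 0.475 and 24.2 ± 9.93 CPM in the same groups. Apln, the apelin precursor, had 2.497 ± 1.91 and 5.80 ± 0.620 CPM. The summed level of the 34 genes was 48.5 to 80.1 CPM in Eed-/- and 49.9 to 56.2 CPM in Eed+/+ neurons, and the genotypes overlapped.

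The genes whose levels followed Npy most closely over the 15 libraries were H2-Q10, Vax2os, Cd59a, Htatip2 and Col12a1. Their Pearson correlations with Npy were 0.94, 0.94, 0.92, 0.90 and 0.87, on log2 CPM over 15 libraries among 13366 genes. They were picked by these correlations over libraries that include the Eed-/- neurons, so their difference between genotypes there follows largely from the choice. All points share the depth of their libraries, and shallow libraries have zeros of many genes at once. Cd59a, a complement regulator, had 7.04, 9.24 and 6.29 CPM in Eed-/- neurons and 0 in both Eed+/+ neurons. In Eed-/- astrocytes it had 0, 9.97, 82.7, 0 and 12.1 CPM, with its highest value in replicate 3, the library that also holds the highest Npy. Vax2os, a non-coding transcript named for its neighbor Vax2, had 3.91, 4.62 and 4.41 CPM in Eed-/- neurons and no read in Eed+/+ neurons. Htatip2 had 2.35 to 5.13 CPM in Eed-/- neurons and up to 0.537 CPM in Eed+/+ neurons. Col12a1, a collagen gene, was less clear-cut, with 14.7 CPM in Eed+/+ astrocyte replicate 1 beside 6.67 to 12.6 CPM in Eed-/- neurons. H2-Q10 belongs to a family of closely related histocompatibility genes, and its counts of up to 13 reads are uncertain.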

How the data were processed

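Smart-seq2 libraries of sorted cells were aligned by the authors with STAR to GRCm38 (mm10), and reads per gene were counted by the same program. The deposited values are raw counts of uniquely aligned reads, and the unstranded column was used, since between 46.7% and 52.7% of stranded reads fell on the first strand. Which annotation was counted on is not stated in the sources. Of 53379 identifiers 53274 matched GENCODE M21. The members and gene lists were chosen with earlier results of these data known. All members were named. Beyond them, up to 4 genes of each pathway list with the highest mean level and the 5 genes most correlated with Npy (prior count 2) were named.

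Genes were tested with edgeR 4.0.16 (R 4.3.3; TMM, filterByExpr, robust quasi-likelihood, two-sided, Benjamini-Hochberg over all genes tested). Genotype was fitted within a cell type, and cell type and the interaction over 15 libraries. Single levels used two-sided exact permutation tests (Python 3.11.15). Alternatives used DESeq2 1.42.0, limma 3.58.1, RLE factors, other filters and fewer libraries. Scripts were tested on simulated data. Exact 95% intervals and the floor of 3 counts cover counting error only, since reads without molecular identifiers are not independent molecules. The library labels called 1 library both astrocyte and neuron, and it entered no comparison. Labels give individual animals as replicates. The study set aside 5 libraries without naming them, so all 15 labelled libraries were kept.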

Additional observations from a re-analysis of the deposited data

Results flagged for a closer look

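Of 9 sets of member levels with 5 libraries each, 4 held a library far above the others, judged by its gap to the next library over the range of the set. Npy (4.19 CPM) and Sst (9.43 CPM) in Eed+/+ astrocyte replicate 1 were the only nonzero values of their groups. Pdyn in Eed+/+ astrocyte replicate 2 (19.8 CPM) lay above 3.14 CPM in replicate 1 and 0 in the others. Cort in Eed-/- astrocyte replicate 5 (3.03 CPM, 3 reads) was the only nonzero value of its group. Each of these sets holds several libraries at 0, in which a single library with reads stands apart by itself.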

How the results depend on the processing

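Depth limits every result here: in the shallow libraries 3 reads correspond to up to 14.2 CPM, above most precursor levels. Genes called in astrocytes by genotype numbered 0, and 5 without a filter, 24 with a mean count filter of 10, 8 with DESeq2, 46 in 1 fit over 15 libraries and 0 to 1 with a library left out. In neurons they numbered 0, and 127 without a filter, 54 with DESeq2, 1 within the alignment limits, 3 in 1 fit over 15 libraries and 0 to 2601 with a library left out. The 2601 arose without Eed+/+ neuron replicate 1, where the lone control is assumed to vary like the other group. Between Eed+/+ cell types there was 1 call, and 2 without a filter, 3 at a mean count of 10, 6 with RLE factors, 10 with DESeq2, 0 within limits and 0 to 5 with a library left out. Between Eed-/- cell types there were 8, and 3, 13 and 0 without a filter, at a mean count of 10 and within limits, and 0 to 26 with a library left out. The interaction had 7 calls, and 2 without a filter, 21 with RLE factors, 3 with DESeq2, 0 within limits and 1 to 12 with a library left out.

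With a block the calls were 0 between Eed+/+ cell types, 5 between Eed-/- cell types and 2 for the interaction, and 0 by genotype in either cell type. The block was the replicate number in the fits by genotype within a cell type. In the fits over 15 libraries it was genotype together with replicate number, as if same-numbered libraries of a genotype came from 1 animal. Correlations of same-numbered libraries, taken on deviations from their group means, ranged from -0.41 to 0.52. With so few libraries in a group they cannot tell whether same-numbered libraries came from the same animal. Under the block, log2 differences between cell types turned to -0.35 for Npy in Eed+/+, and to 1.14 for Cck and 2.46 for Pdyn in Eed-/-.

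Other member values that turned sign were Cck by genotype in neurons with limma-voom (-0.25), the Pdyn interaction within limits (-1.03), and Cck (13.5 CPM within limits, 8.32 CPM in the first run of library numbers) and Pdyn (-0.163 CPM in that run) by genotype in astrocytes. Leaving out a library moved Npy between Eed+/+ cell types from -3.34 to 4.42, Pdyn there from -5.60 to 1.26, Cck between Eed-/- cell types from -1.05 to 0.62, Pdyn there from -0.86 to 0.53, the Npy interaction from -5.85 to 1.94 and the Pdyn interaction from -1.61 to 5.26. Level differences ranged likewise from -5.61 to 6.998 CPM for Cck by genotype in astrocytes, and between Eed+/+ cell types from -0.838 to 2.38 CPM for Npy, -4.59 to 1.09 CPM for Pdyn and -2.34 to 0.249 CPM for Cort. The cause was not tested. Npy aside, for which no calls are given, no member was called under any alternative.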

Other observations

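The library whose labels name both cell types had 221456 gene reads and 0 reads for all 10 precursors, where 3 reads correspond to 13.5 CPM. Scg2, the secretogranin II gene of the granule list, was chosen after its values were seen. Its mean was 26.5 ± 19.5 CPM (SD, n = 3) in Eed-/- neurons and 1.07 ± 1.52 CPM (SD, n = 2) in Eed+/+ neurons. The log2 fold change was 3.89 (SE 1.23). It is given with no p because Scg2 passed the filter on low counts through its Eed-/- reads. All 3 Eed-/- libraries lay above both controls, as did 11% of all genes with a read in neurons.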
